A study of Homo sapiens with 11 samples.

Results

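The 9 genes GZMA, GZMB, PRF1, NKG7, KLRD1, NCR3, TYROBP, EOMES and TBX21, which natural killer (NK) cells and cytotoxic T-cells use for killing, were read in 11 cell lines of T-cell acute lymphoblastic leukemia (T-ALL). They were chosen by name from 19775 genes that the HG U133 Plus 2.0 array reads with a probe set of their own. Earlier results of these data were known when they were chosen. A probe set is a group of short DNA probes for 1 transcript. Of 41091 probe sets that carry 1 gene symbol, 14 belong to these 9 genes, and where a gene had several, the one with the highest mean of the 11 lines stands for it.

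Each line was profiled on 1 array, and the study asked which genes accompany the activity of NKL homeobox genes in T-ALL. NKL is a subclass of homeobox genes, which code for DNA-binding developmental regulators, and the abbreviation has no connection to NK-cells. The NKL-positive lines were JURKAT, LOUCY, PEER, ALL-SIL, HPB-ALL and CCRF-CEM, and the NKL-negative lines were SUP-T1, MOLT-16, MOLT-14, MOLT-4 and CML-T1. All 11 are established cultures of leukemic T-lineage cells without any treatment stated in the labels, and they differ in origin, so that the groups differ in more than NKL status. The comparison of the groups used 5 lines each, because the study left JURKAT out. JURKAT is given separately, except that the values flagged for a closer look count it as NKL-positive. The values are log2 expression levels, and the number of arrays limits their precision. The median of all probe sets of an array lay between 4.63 and 4.76, the lower quartile between 3.45 and 3.60 and the upper quartile between 6.68 and 7.18.

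NK-cells and cytotoxic T-cells store toxic proteins in granules and release them onto a target cell. Perforin, the product of PRF1, opens the target membrane, and granzymes such as those of GZMA and GZMB are proteases that enter and start cell death. NKG7 codes for a protein of the granule membrane. KLRD1 (CD94) and NCR3 (NKp30) are receptors by which NK-cells read a target, TYROBP (DAP12) is an adaptor that passes on signals of several such receptors, and the T-box factors EOMES and TBX21 (T-bet) switch the program on. Most developing thymocytes, from which T-ALL arises, do not normally run this program.

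The sequences in front of 4 of these genes are shown because 3 of the genes carried the differences between lines and GZMB did not. RefSeq (GRCh38.p14) gave promoters for 7 of the 9 genes. The window of 250 bases before the start lies at chr5:55102396-55102645 (plus strand) for GZMA, at chr10:70602742-70602991 (minus strand) for PRF1, at chr14:24634191-24634440 (minus strand) for GZMB and at chr19:51372655-51372904 (minus strand) for NKG7. Each is printed 5′ to 3′ toward the gene, and capitals mark the core of RUNX factor sites, TGTGGT or its reverse ACCACA.
GZMA: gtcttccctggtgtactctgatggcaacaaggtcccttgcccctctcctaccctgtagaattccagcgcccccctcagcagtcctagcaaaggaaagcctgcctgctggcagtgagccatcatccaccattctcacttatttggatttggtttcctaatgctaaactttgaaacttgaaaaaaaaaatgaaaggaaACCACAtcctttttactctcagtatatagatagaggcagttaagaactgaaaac
PRF1: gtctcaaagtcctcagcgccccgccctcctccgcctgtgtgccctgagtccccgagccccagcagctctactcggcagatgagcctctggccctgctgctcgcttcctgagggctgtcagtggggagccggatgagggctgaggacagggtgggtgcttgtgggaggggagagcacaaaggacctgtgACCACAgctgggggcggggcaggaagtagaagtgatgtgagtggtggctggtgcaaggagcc
GZMB: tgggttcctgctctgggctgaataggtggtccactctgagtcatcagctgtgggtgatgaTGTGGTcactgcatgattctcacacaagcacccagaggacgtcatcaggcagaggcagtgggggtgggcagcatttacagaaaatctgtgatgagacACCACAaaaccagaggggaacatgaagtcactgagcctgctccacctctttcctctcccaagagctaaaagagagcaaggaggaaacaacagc
NKG7: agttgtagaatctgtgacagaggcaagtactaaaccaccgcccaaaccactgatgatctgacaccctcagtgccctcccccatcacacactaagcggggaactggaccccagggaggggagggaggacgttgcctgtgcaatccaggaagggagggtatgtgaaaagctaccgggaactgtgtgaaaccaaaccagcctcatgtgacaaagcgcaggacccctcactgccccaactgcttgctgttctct
The RUNX core stood 54 bases before the start of GZMA, 62 before PRF1, and 190 and 93 before GZMB. It was not in the windows of NKG7, TYROBP, EOMES or TBX21, so that 3 of 7 members held it, and 10.98% of all 35116 promoters of this length did. The T-box core GGTGTGA, searched on both strands, was in 0 of the 7 windows and in 2.76% of all promoters. These are matches of letters, and no binding was measured.

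GZMA was high in some lines of both groups and near the bottom of the array in others. Its values in the NKL-positive lines were 3.26 in ALL-SIL, 11.29 in CCRF-CEM, 3.59 in HPB-ALL, 8.03 in LOUCY and 3.28 in PEER. The NKL-negative lines gave 9.81 in CML-T1, 3.32 in MOLT-4, 7.23 in MOLT-14, 7.98 in MOLT-16 and 3.85 in SUP-T1, and JURKAT gave 5.75. Thus 5 lines were high, 5 were low, JURKAT lay between them, and the groups overlapped over nearly the whole range. A gene was said to stand out in a line where it exceeded the median of the remaining 10 lines by 2 log2 units or more and also the array median there. GZMA stood out in CCRF-CEM, LOUCY, CML-T1, MOLT-14 and MOLT-16. With 1 array per line the spread within a line is unknown, so that neighbours in this order, such as LOUCY and MOLT-16, could not be compared by a test.

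PRF1, by the probe set read for the gene, was above the array median in all 11 lines and formed a high and a low set. The probe set 214617_at read 5.78 in ALL-SIL, 5.27 in CCRF-CEM, 6.69 in HPB-ALL, 9.74 in LOUCY and 5.17 in PEER. Among the NKL-negative lines it read 10.20 in CML-T1, 6.02 in MOLT-4, 5.78 in MOLT-14, 9.0 in MOLT-16 and 5.90 in SUP-T1, and JURKAT had 5.15. LOUCY, CML-T1 and MOLT-16 stood out, and no other line passed 6.69. The second probe set, 1553681_a_at, put the same 3 lines on top with 8.60, 8.35 and 7.14 against 4.32 to 5.66 elsewhere. It was above the array median in 9 lines, with ALL-SIL at 4.32 and PEER at 4.58 below it. The values of the 2 probe sets correlated over the 11 lines with r = 0.96, as a description.

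All 3 lines with high perforin were also lines in which GZMA stood out, whereas CCRF-CEM, the line with the highest GZMA, had PRF1 at 5.27. Over the 11 lines GZMA and PRF1 correlated with r = 0.47 and rho = 0.35. Thus MOLT-14 and CCRF-CEM carried high granzyme A transcript without PRF1 standing out.

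NKG7 ranged over 7.81 log2 units, nearly as far as GZMA with 8.03. It reached 10.32 in ALL-SIL, 9.11 in CCRF-CEM, 6.51 in HPB-ALL, 9.36 in LOUCY and 8.01 in PEER. The NKL-negative lines had 8.39 in CML-T1, 3.60 in MOLT-4, 8.08 in MOLT-14, 11.41 in MOLT-16 and 5.30 in SUP-T1, and JURKAT had 4.08. Both the highest and the lowest value belonged to NKL-negative lines. NKG7 stood out in ALL-SIL and MOLT-16, and its median of 8.08 over the lines was high enough that LOUCY and CCRF-CEM did not pass the gap of 2. ALL-SIL, second in NKG7, was the lowest line for GZMA.

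GZMB gave no value above the array median in any line. It read 3.49 in ALL-SIL, 3.58 in CCRF-CEM, 3.42 in HPB-ALL, 3.66 in LOUCY and 3.76 in PEER, and 3.45 in JURKAT. CML-T1 was the highest with 4.34, followed by 3.74 in MOLT-14, 3.62 in SUP-T1, 3.32 in MOLT-4 and 3.04 in MOLT-16. In 4 lines it lay below the lower quartile of the array. Hence MOLT-16 and LOUCY, which stood out for GZMA and PRF1, did not do so for GZMB. GZMA stood out in 5 lines and GZMB in 0.

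**Figure D1:**
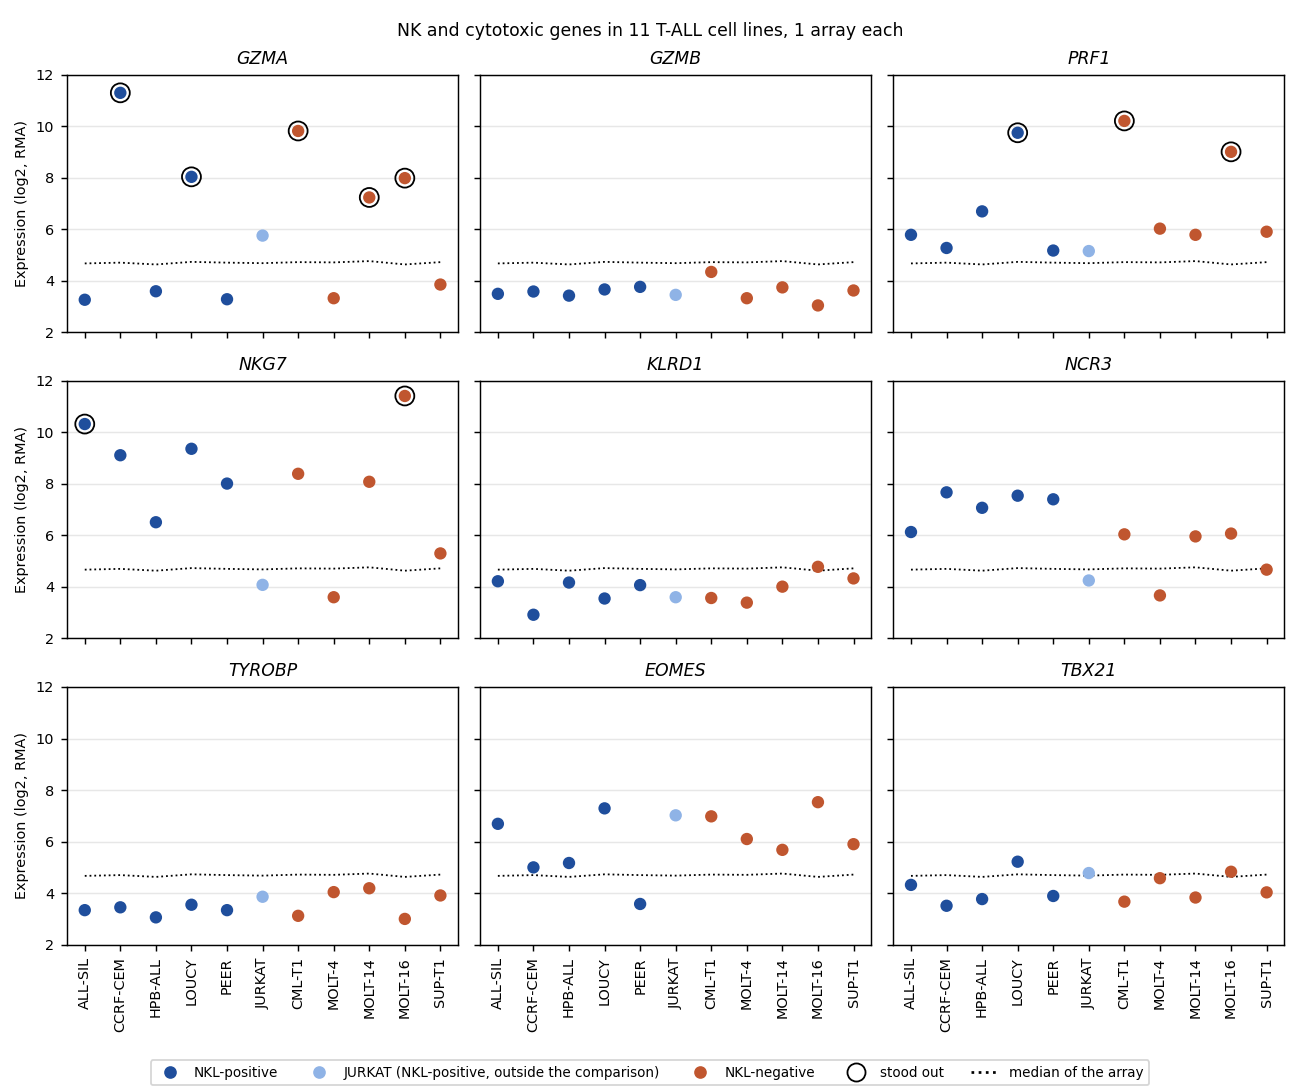
Expression of the 9 members (log2, RMA, vertical axis) in each of the 11 cell lines (horizontal axis, 1 array each), with NKL-positive lines in blue, JURKAT in light blue and NKL-negative lines in orange. Circles mark the 10 values that stood out, which belong to GZMA, PRF1 and NKG7, and the dotted line is the median of each array; GZMB and TYROBP lie under it in all lines.

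Among the receptors, NCR3 was read at intermediate levels and KLRD1 near the bottom of the array. NCR3 codes for NKp30, an activating receptor of NK-cells. The probe set 211583_x_at read 6.13 in ALL-SIL, 7.67 in CCRF-CEM, 7.07 in HPB-ALL, 7.54 in LOUCY and 7.40 in PEER. The NKL-negative lines had 6.04 in CML-T1, 3.67 in MOLT-4, 5.96 in MOLT-14, 6.07 in MOLT-16 and 4.67 in SUP-T1, while JURKAT had 4.25. The 5 NKL-positive lines of the comparison all lay above the 5 NKL-negative lines, with 0.06 between ALL-SIL and MOLT-16, and JURKAT lay below 4 of the 5 NKL-negative lines. With the other 2 probe sets the groups overlapped: 210763_x_at read 5.69 in ALL-SIL but 6.34 in CML-T1 and 6.64 in MOLT-16, and 211010_s_at read 5.15, 6.47 and 6.61 in these lines. In MOLT-14 the 3 probe sets parted, at 5.96, 4.59 and 4.59. The ending x marks probe sets whose probes may bind other transcripts as well. The 3 probe sets correlated pairwise with r of 0.88 to 0.98.

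KLRD1 codes for CD94, which pairs with NKG2 receptors. It read 4.22 in ALL-SIL, 2.92 in CCRF-CEM, 4.17 in HPB-ALL, 3.55 in LOUCY, 4.07 in PEER and 3.60 in JURKAT. Of the NKL-negative lines CML-T1 had 3.57, MOLT-4 had 3.39, MOLT-14 had 4.01, MOLT-16 had 4.78 and SUP-T1 had 4.33. MOLT-16 was the highest line and the only line in which this probe set passed the array median. The probe set 210606_x_at likewise had its highest value in MOLT-16, at 5.29, whereas 207796_x_at read 4.54 in LOUCY and 4.52 in MOLT-16. Their pairwise r of 0.41 to 0.68 over the lines was lower than for PRF1 or NCR3.

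**Figure D2:**
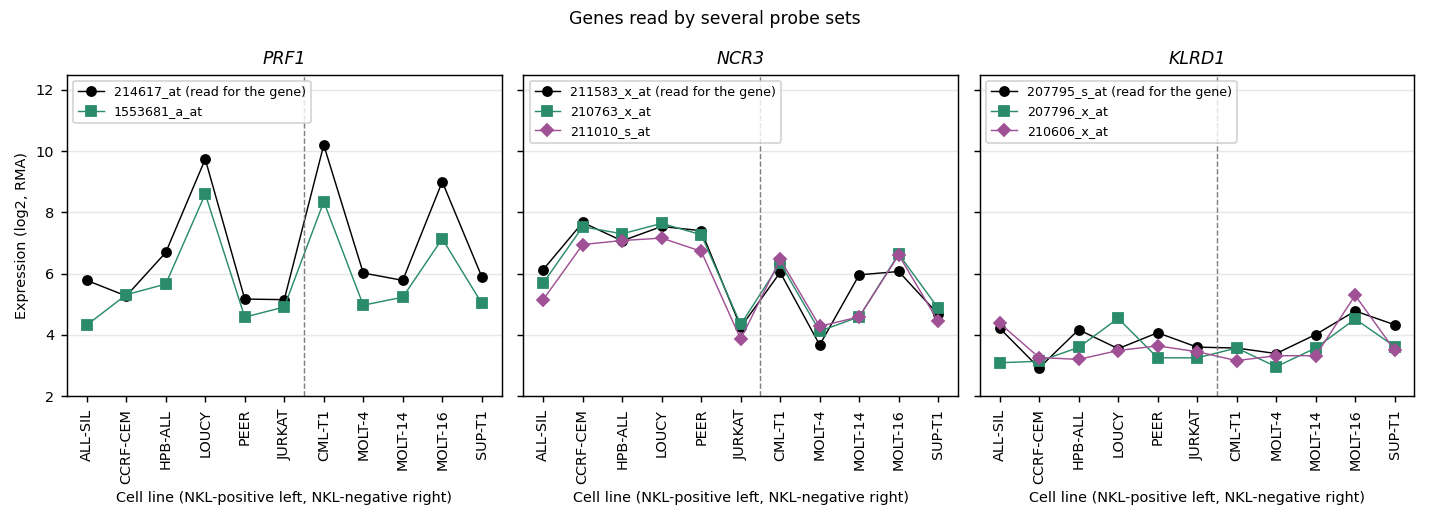
Values (log2, RMA) of each probe set of PRF1, NCR3 and KLRD1 in the 11 cell lines, with NKL-positive lines left and NKL-negative lines right of the dashed line; black circles mark the probe set read for the gene. The 2 PRF1 probe sets peak in the same 3 lines, the NCR3 probe sets part in MOLT-14, and the KLRD1 probe sets stay at or below 5.29.

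TYROBP, the adaptor known as DAP12, was not above the array median in any line. Its values were 3.34 in ALL-SIL, 3.45 in CCRF-CEM, 3.06 in HPB-ALL, 3.55 in LOUCY, 3.34 in PEER and 3.86 in JURKAT. In the NKL-negative lines it read 3.12 in CML-T1, 4.04 in MOLT-4, 4.19 in MOLT-14, 3.0 in MOLT-16 and 3.91 in SUP-T1. Thus the lines that stood out for perforin were not those with the highest TYROBP, and in 6 lines it lay below the lower quartile. HCST (DAP10), an adaptor gene directly beside TYROBP in the RefSeq order of chromosome 19, ran from 5.66 in SUP-T1 to 9.55 in MOLT-16 and stood out in MOLT-16 and in LOUCY, where it had 9.32.

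EOMES was read above the array median in 10 lines and TBX21 in 3. EOMES had 6.69 in ALL-SIL, 5.0 in CCRF-CEM, 5.17 in HPB-ALL, 7.29 in LOUCY, 3.58 in PEER and 7.02 in JURKAT. The NKL-negative lines had 6.98 in CML-T1, 6.10 in MOLT-4, 5.68 in MOLT-14, 7.53 in MOLT-16 and 5.90 in SUP-T1. MOLT-16 and LOUCY were the highest lines and PEER the lowest, and no line passed the gap of 2. TBX21 had 4.32 in ALL-SIL, 3.51 in CCRF-CEM, 3.77 in HPB-ALL, 5.22 in LOUCY, 3.89 in PEER and 4.78 in JURKAT. It read 3.67 in CML-T1, 4.58 in MOLT-4, 3.83 in MOLT-14, 4.83 in MOLT-16 and 4.03 in SUP-T1. LOUCY and MOLT-16 were again the highest, and they and JURKAT were the lines above the array median. Over the 11 lines the 2 factors correlated with r = 0.66 and rho = 0.73.

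Of the 36 pairs of members, NKG7 and NCR3 had the highest Pearson correlation (r = 0.70, rho = 0.62), followed by EOMES with TBX21, which were the highest by rho, and by PRF1 with EOMES (r = 0.62, rho = 0.49). NKG7 and TYROBP had the lowest r (r = -0.61, rho = -0.53). TYROBP spanned 1.19 log2 units and was not above the array median in any line, so this r rests on signal near background. Each correlation rests on 11 arrays and is a description.

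In all, members stood out in 10 of 99 pairs of a gene and a line (10.1%), and over all genes 1.88% of pairs did. These 10 pairs came from 3 of the 9 members and 6 of the 11 lines, and 11.5% of all genes stood out in at least 1 line. By group, 4 pairs fell in 3 NKL-positive lines and 6 pairs in 3 NKL-negative lines. MOLT-16 had 3 such members, LOUCY and CML-T1 had 2 each, and ALL-SIL, CCRF-CEM and MOLT-14 had 1 each. HPB-ALL, PEER, MOLT-4, SUP-T1 and JURKAT had 0.

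The lines were then compared by NKL status. Of the 9 members, 2 had a higher and 7 a lower mean in the NKL-positive lines, with a median difference of -0.23 log2 units, and 49.8% of all genes were higher. By limma with Benjamini-Hochberg adjustment over 54613 probe sets, 0 of the 9 members passed an adjusted p of 0.05, and 5 probe sets of the array did (0.00916%). At an unadjusted p of 0.05, 1 member passed, namely NCR3, where 5.26% of all genes did. Its mean was 7.16 ± 0.62 (SD, n = 5) in the NKL-positive and 5.28 ± 1.08 (SD, n = 5) in the NKL-negative lines, a difference of 1.88 (SE 0.50, 95% interval 0.77 to 2.99, adjusted p = 0.803 by limma). The other probe sets gave 1.77 and 1.34, and with JURKAT added the difference was 1.39 (adjusted p = 0.962). Of the 9 members, 1, again NCR3, had groups of 5 lines without overlap and NKL-positive higher, where 0.379% of all genes showed this. With NKL-positive lower, 0 members did so, where 0.526% of all genes did. NCR3 was chosen with earlier results of these data known, so the shares over all genes give no test of it.

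NKG7 was the other member with a higher mean in the NKL-positive lines, at 8.66 ± 1.46 against 7.36 ± 3.02 (SD, n = 5 each). The difference of 1.31 had a standard error of 1.31 and a 95% interval of -1.59 to 4.20 (limma, adjusted p = 0.981), and with JURKAT it was 0.54. Thus it was smaller than the spread between the NKL-negative lines. For the granule effectors GZMA and PRF1 the differences were -0.55 (95% interval -4.49 to 3.40) and -0.85 (-3.28 to 1.58), with adjusted p-values of 0.993 and 0.982 by limma. Each group held lines with high and with low values, and a difference of 1 log2 unit in either direction lies within both intervals. The sign of GZMA turned when ALL-SIL, HPB-ALL, PEER or CML-T1 was left out.

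Intervals for the remaining members were narrower than those of GZMA, PRF1 and NKG7. GZMB differed by -0.03 (-0.56 to 0.50), KLRD1 by -0.23 (-0.97 to 0.51), TYROBP by -0.30 (-0.89 to 0.28), EOMES by -0.89 (-2.36 to 0.57) and TBX21 by -0.05 (-0.82 to 0.73), with adjusted p-values from 0.981 to 0.998 by limma. For GZMB, KLRD1, TYROBP and TBX21 the intervals lay within 1 log2 unit of 0, and their levels were mostly below the array median.

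**Figure D3:**
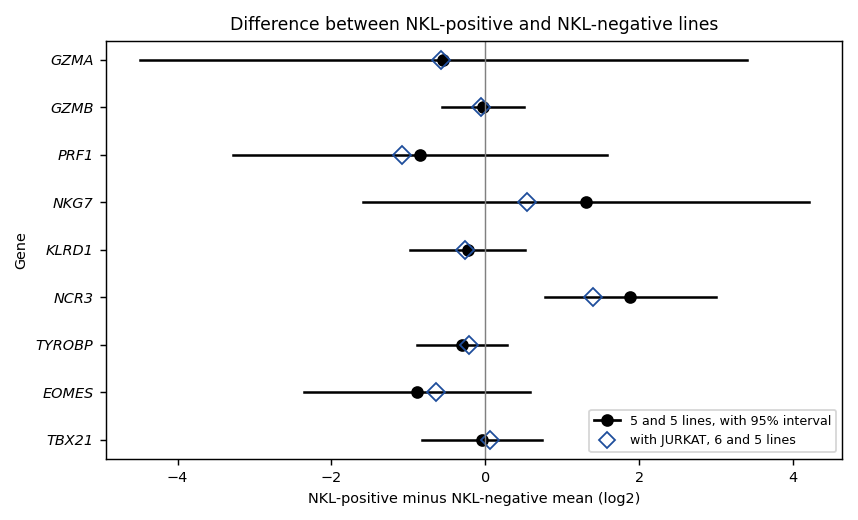
Difference of the NKL-positive minus the NKL-negative mean (log2, horizontal axis) for each member (vertical axis), over 5 and 5 lines with its 95% interval from limma (black) and with JURKAT added (blue diamonds, 6 and 5 lines). The interval of NCR3, 0.77 to 2.99, is the only one without 0, and JURKAT moves NCR3 to 1.39 and NKG7 to 0.54.

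The arrays fell into 2 technical sets that touch these results. The spike-in control RNAs with poly-A tails read 3.0 to 3.14 in CML-T1, HPB-ALL and MOLT-16, but 5.96 to 9.48 in the other 8 lines. Of the 3 lines in which PRF1 stood out, CML-T1 and MOLT-16 were without the controls and LOUCY had them. GZMA stood out in these 3 and, with the controls present, in CCRF-CEM and MOLT-14. HPB-ALL, also without the controls, read GZMA at 3.59 and PRF1 at 6.69, the highest PRF1 value after the 3 lines that stood out. The lowest TYROBP values were those of the arrays without the controls, with 3.12 in CML-T1, 3.06 in HPB-ALL and 3.0 in MOLT-16. Among lines with the controls, without JURKAT, the difference of GZMA turned to 1.67 and that of PRF1 to 0.59, and GZMB and TBX21 turned to 0.06 and 0.09, while NKG7 was at 3.54, NCR3 at 2.42 and TYROBP at -0.63 (adjusted p = 0.548, 0.456 and 0.542 by limma). The set without controls has 1 NKL-positive and 2 NKL-negative lines, which gives no test of its own. With a term for the set, the differences were -0.29 for GZMA, -0.39 for PRF1, 1.60 for NKG7 and 2.03 for NCR3. What part the controls' set has in these results was not tested.

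Genes that work with the members were then read from 5 lists of granule effectors, granule release, NK receptors, adaptors and transcription factors, of which 73 of 79 genes were measured. By limma 0 of the 73 passed an adjusted p of 0.05 and 4 passed an unadjusted p of 0.05 (LYST, CD244, RUNX3 and PRDM1), where 5.26% of all genes did. The means were higher in the NKL-positive lines for 41 and lower for 32, with a median difference of 0.13. At least 1 line stood out for 32 of the 73 genes (43.8%), beside 11.5% of all genes. Such a share was not particular to these lists. Among the marker genes read below it was 50% of 10 T-lineage, 44.4% of 9 myeloid and 60% of 5 B-cell genes. Of 4 genes listed as NK-cell markers it was 25%, all from GNLY. GNLY, NCR1, KLRF1 and FCER1G are on a marker list and also among the 73, so the NK-cell and myeloid shares are not separate. KLRC1, KLRC2, KLRK1, FCGR3A, KIR3DL2 and RUNX1 were not analysed here.

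Of 13 further granule effectors and processing genes, 9 had a higher and 4 a lower mean in the NKL-positive lines, and 7 stood out in some line. CTSW, a cathepsin of cytotoxic cells, read 11.11 in MOLT-16, 10.52 in CCRF-CEM, 9.53 in LOUCY and 8.19 in PEER, against 4.67 to 6.89 in the other 7 lines. CST7, an inhibitor of such cathepsins, read 10.69 in MOLT-16, 9.13 in HPB-ALL and 8.90 in LOUCY. GNLY, which codes for the membrane-lysing granulysin, read 10.38 in MOLT-16 and 7.30 in CCRF-CEM and at most 5.27 elsewhere. MOLT-16 had the highest value of all 3 genes, and CCRF-CEM came next in CTSW and GNLY. SERPINB9, the inhibitor of granzyme B, took another course with 10.69 in HPB-ALL, 8.06 in SUP-T1, 7.66 in PEER and 7.52 in CML-T1, and 2.82 to 4.91 in the rest. Of the granzyme genes beside the members, GZMK, next to GZMA on chromosome 5, read 6.53 in CML-T1, 5.39 in MOLT-16, against 3.37 to 4.28 in the remaining lines. GZMH, next to GZMB on chromosome 14, stayed between 2.92 and 4.19, as GZMB did between 3.04 and 4.34. GZMM read 8.43 in PEER, 7.28 in CCRF-CEM and 6.96 in CML-T1, where it stood out, and was lowest in MOLT-16, at 3.0. So GZMA and GZMK shared CML-T1 as a line that stood out, but CCRF-CEM, with the highest GZMA, had GZMK at 4.04.

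Of 9 genes for granule release, 4 had a higher and 5 a lower mean, and 3 stood out. RAB27A, which docks granules, read 11.36 in MOLT-16 and 10.80 in LOUCY and went down to 6.13 in MOLT-4. VAMP8, a vesicle fusion protein, had 10.31 in CCRF-CEM, 10.37 in LOUCY, 10.51 in PEER and 10.44 in MOLT-16, was intermediate with 6.32 in CML-T1, and had 3.26 to 4.33 in the remaining lines. LYST, a regulator of lysosome size, had a difference of -3.0 (adjusted p = 0.981 by limma), with 2.92 to 8.82 in the NKL-positive and 5.30 to 9.11 in the NKL-negative lines. STXBP2, a partner of syntaxins in granule fusion, ran from 4.17 in HPB-ALL to 8.45 in CCRF-CEM and stood out in none.

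Of 19 measured NK receptors, 10 had a higher and 9 a lower mean, and 7 stood out. CD244 (2B4) read 6.38 in ALL-SIL, 7.79 in CCRF-CEM, 9.81 in HPB-ALL, 8.84 in LOUCY and 7.45 in PEER. The NKL-negative lines had 8.61 in MOLT-16 and 4.21 to 5.10 in the other 4, and JURKAT had 4.73. MOLT-16 was thus the NKL-negative line that overlapped the NKL-positive lines, and the difference was 2.55 (adjusted p = 0.981 by limma). IL18RAP, part of the IL-18 receptor, had 9.86 in LOUCY and 7.86 in MOLT-16 and at most 5.35 elsewhere. CD226 (DNAM-1) had 7.55 in MOLT-16 and at most 4.54 elsewhere, and CD96, a related receptor, ran from 4.54 in HPB-ALL to 10.10 in MOLT-16. MOLT-16 stood out for CD244, IL18RAP and CD226, LOUCY for CD244 and IL18RAP, and no line stood out for CD96.

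Of 11 adaptors and signalling genes, 5 had a higher and 6 a lower mean, and 4 stood out. FCER1G, an adaptor of NKp30, had 7.68 in LOUCY and 7.10 in MOLT-16 and 3.32 to 5.5 in the others. SYK, a kinase that acts behind such adaptors, had 8.94 in LOUCY, 6.59 in JURKAT, 6.05 in MOLT-16 and at most 4.78 elsewhere. PLCG2, a phospholipase of the same route, stood out in LOUCY with 8.67. The T-cell receptor chain gene CD247, which NKp30 also uses, stayed between 9.26 and 10.99.

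Of 21 measured transcription factors, 13 had a higher and 8 a lower mean, and 11 stood out. STAT4, which acts behind interleukin-12, had 10.37 in MOLT-16, 9.34 in CML-T1 and 7.78 in ALL-SIL and at most 6.51 elsewhere. ZBTB16 (PLZF), a factor of innate-like T-cells, had 10.92 in MOLT-14, 8.10 in PEER, 6.94 in JURKAT and 6.52 in LOUCY. TOX2 had 9.59 in HPB-ALL, 8.63 in JURKAT and 8.56 in CML-T1, and NFIL3 ran from 3.53 in MOLT-4 to 9.50 in JURKAT. These factors thus did not share 1 set of lines. The factor genes with an unadjusted p under 0.05, named after their values were seen, were RUNX3 (difference 2.40, adjusted p = 0.927 by limma) and PRDM1 (difference -0.90, adjusted p = 0.860). RUNX3 read 9.0 to 10.20 in the 5 NKL-positive lines, 5.30 in JURKAT, and 9.95 in CML-T1 against 5.43 to 7.42 in the other NKL-negative lines.

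**Figure D4:**
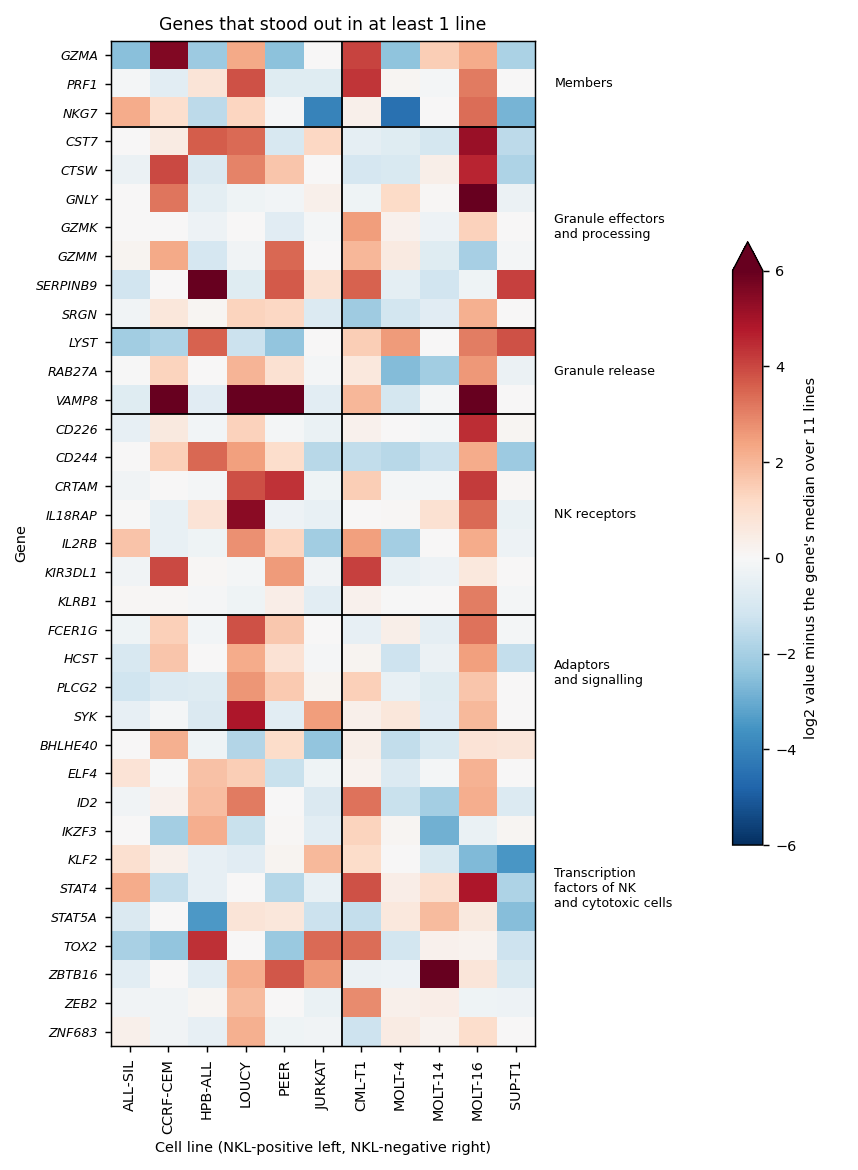
Each row is a gene that stood out in at least 1 line, the 3 members first and then 32 genes of the 5 lists, and each column a cell line, with NKL-positive lines left and NKL-negative lines right of the black line. Colour gives the log2 value minus the gene's own median over the 11 lines, and gaps over 6 share the darkest red; MOLT-16 stood out for 19 and LOUCY for 15 of the listed genes, more than any other line.

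By line, MOLT-16 stood out for 19 of the 73 listed genes (26.0%), LOUCY for 15 (20.5%) and CML-T1 for 10 (13.7%). Over all genes these lines stood out for 2.31%, 2.46% and 3.34%. CCRF-CEM had 7 of the listed genes (9.59%, beside 1.62% of all genes). PEER and HPB-ALL had 6 each (8.22%, beside 1.56% and 2.57%). JURKAT had 4 (5.48%, beside 1.99%). MOLT-14 and SUP-T1 had 2 each (2.74%, beside 1.46% and 1.41%), and ALL-SIL and MOLT-4 1 each (1.37%, beside 0.99%). LOUCY, CML-T1 and MOLT-16, with PRF1 at 9 log2 units or more, were hence also those with the most listed genes by count. They belong to both NKL groups. As a ratio to the share over all genes, CML-T1 ranked below CCRF-CEM and PEER. CML-T1 and MOLT-16 are arrays without the poly-A controls, as is HPB-ALL with its 6 genes, and LOUCY has them. What part this has in the counts was not tested.

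Marker genes were read in the same lines, and a bulk array cannot tell fewer cells of a type from less RNA per cell. CD3D was between 12.64 and 13.44, CD3E between 9.19 and 10.69 and CD3G between 8.11 and 11.13 in all 11 lines. Of the 10 T-lineage markers, others varied: CD2 read 10.12 in MOLT-16 but 4.13 in CML-T1, 4.43 in LOUCY, 4.16 in PEER and 4.21 in SUP-T1, and RAG1 ran from 2.75 in MOLT-16 to 11.26 in SUP-T1. The mean of the 10 was lowest in CML-T1, at 7.47, and highest in HPB-ALL, at 10.14. Of the genes listed as NK-cell markers, NCAM1 (CD56) lay between 3.76 and 5.33 with MOLT-16 lowest. NCR1 (NKp46) lay between 4.07 and 5.22 and KLRF1 between 2.64 and 4.52 with MOLT-16 highest. GNLY, the fourth of these markers, was high in MOLT-16 and CCRF-CEM as given above. The mean of 9 myeloid markers was 6.18 in LOUCY and 4.41 to 4.87 in the other lines, with SPI1 at 6.22 and FCER1G at 7.68 in LOUCY. CML-T1 stood out for 2 of the 9, with ITGAM at 7.08 (6.76 in LOUCY) and LYZ at 5.21 (5.48 in LOUCY), and MOLT-16 for FCER1G. CD14 (3.04 to 3.98) and MPO (3.51 to 4.44) were near the bottom in all lines. AIF1, also on this list, was instead high in all 11 lines, at 9.91 to 12.1, and enters each mean. The part of such other programs in the cytotoxic genes of LOUCY, CML-T1 and MOLT-16 was not tested. The mean of 5 B-cell markers was 6.06 in CML-T1, 5.96 in LOUCY and 4.41 to 5.31 in the other lines. CD79A read 10.12 in CML-T1 and 9.25 in LOUCY, MS4A1 6.54 in CML-T1 and CD79B 8.25 in LOUCY, whereas PAX5 had its lowest value in CML-T1, at 3.73, and BLNK read 3.26 there. The 3′ minus 5′ difference of the ACTB controls, a sign of RNA integrity, ran from 0.17 in LOUCY to 1.17 in MOLT-4. Further NKL-positive lines had 0.56 in ALL-SIL, 0.47 in CCRF-CEM, 0.94 in HPB-ALL, 0.4 in PEER and 0.52 in JURKAT. Further NKL-negative lines had 1.02 in CML-T1, 0.43 in MOLT-14, 0.95 in MOLT-16 and 0.83 in SUP-T1. CML-T1, MOLT-16 and HPB-ALL, without the poly-A controls, lay above all other lines except MOLT-4. What part RNA integrity has in the group differences was not tested.

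Finally, the genes with patterns most like those of the 3 members that stood out were named from 7180 genes with a range of at least 2 log2 units, by Pearson's r over the 11 lines. For PRF1 these were TNFRSF10A (r = 0.95, rho = 0.81), FGL2 (r = 0.92, rho = 0.89) and FCHSD1 (r = 0.92, rho = 0.72). FGL2 passed the array median only in LOUCY, at 4.83, and went down to 2.64, so its r rests on signal near background. TNFRSF10A, a receptor for the death ligand TRAIL, read 6.66 in LOUCY, 6.90 in CML-T1 and 6.73 in MOLT-16, against 3.91 to 5.15 in the remaining lines. For GZMA they were CASTOR1 (r = 0.86, rho = 0.83), ETV5 (r = 0.85, rho = 0.81) and SDK2 (r = 0.83, rho = 0.77). ETV5 followed GZMA in CCRF-CEM (9.91), CML-T1 (9.67), LOUCY (8.17) and MOLT-16 (8.08) but was highest in MOLT-14 (11.41). For NKG7 they were ACKR3 (r = 0.91, rho = 0.90), NID2 (r = 0.87, rho = 0.92) and STING1 (r = 0.86, rho = 0.72). The best of many genes correlate by selection, so that these are descriptions without a test.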

How the data were processed

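Total RNA of 11 T-ALL cell lines was labelled and hybridized to HG U133 Plus 2.0 arrays, 1 per line. The deposited log2 values were made by the authors with RMA (background correction, quantile normalization and 1 value per probe set; affy and limma are named in the submitters' processing notes, versions not given in the sources used here). Quantile normalization can hide a shift shared by all genes, and RMA compresses differences near background. Values were used as deposited. The files give no counts or depth.

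Probe sets were named from the array annotation. A gene was read from the probe set with 1 symbol and the highest mean, and 62 control probe sets were left out. Groups were taken from the NKL status in the labels. Linear models with empirical Bayes moderation (limma 3.58.1, R 4.3.3) compared 5 with 5 lines, without covariates, with Benjamini-Hochberg adjustment over 54613 probe sets at 0.05. The lines are the replicates, so p-values measure the spread between lines. These models were also run once on made-up values. The outcome is not given here, so that run does not show how small a difference 5 with 5 lines can detect. Named genes were all members, the 4 genes of each list with the largest range, any with an adjusted p under 0.05 or without overlap between the groups, and 3 like genes for each member that stood out. GZMK, GZMH, GZMM, CD247, RUNX3, PRDM1 and the marker genes with values were named besides this rule, after their values were seen. Members and lists were chosen with earlier results of these data known, NCR3 among them. Alternatives were other sets of lines, each line left out, a term for absent poly-A controls, median centring, quantile normalization, a filter, a floor, array weights, an intensity trend, averaged probe sets, and other gaps and levels for standing out. Tables and plots were made with Python 3.11.15, pandas 2.3.3, numpy 2.4.6 and matplotlib 3.10.9.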

Additional observations from a re-analysis of the deposited data

Results flagged for a closer look

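The 9 members and the 20 listed genes with the largest ranges were each read in both groups (58 groups of 5 or 6 lines). JURKAT was counted among the NKL-positive lines here. In these groups, 11 values lay far from the rest of their group. Each had a gap to its nearest neighbour that is large against the whole range. Chance alone marks about 1 in 20 groups, but this rate does not hold for the 20 listed genes, which were chosen for a large range over the same lines. All genes share the same arrays.

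The 18 groups of members gave 1 of the 11 values, near the chance rate of 1 in 20. It was PRF1 in LOUCY, at 9.74 where the other NKL-positive lines had 5.15 to 6.69. In LOUCY, IL18RAP was also apart, at 9.86 against 3.98 to 5.28. MOLT-16 gave 5 of the 11 values among the NKL-negative lines. These were FCER1G at 7.10 (others 3.32 to 4.20), GNLY at 10.38 (others 3.73 to 5.27), CST7 at 10.69 (others 3.91 to 4.96), CD244 at 8.61 (others 4.21 to 5.10) and CD226 at 7.55 (others 3.02 to 3.40).

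GNLY in CCRF-CEM was at 7.30 where the other NKL-positive lines had 3.53 to 4.39. ZBTB16 in MOLT-14 was at 10.92 against 3.44 to 5.09. NFIL3 was apart on the low side, with 6.31 in ALL-SIL against 8.38 to 9.50 and with 3.53 in MOLT-4 against 7.12 to 8.14.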

How the results depend on the processing

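Over 21 alternatives to the comparison by NKL status, 0 members and 0 listed genes passed an adjusted p of 0.05 in any. KLRD1, TYROBP, NCR3 and NKG7 kept their direction in all alternatives run. NCR3 lay between 1.39 and 2.42 (adjusted p 0.456 to 0.9999 by limma) and NKG7 between 0.37, without MOLT-4, and 3.54. A filter and an intensity trend cannot change a difference. Averaged probe sets cannot either where a gene has 1 probe set, as NKG7 and TYROBP do. Such alternatives thus say nothing on direction, though the counts here include them. Of 185 differences of members, 23 turned to the positive side, in GZMA, GZMB, PRF1, EOMES and TBX21. With only the lines that have poly-A controls, GZMA was 1.67, GZMB 0.0625, PRF1 0.59 and TBX21 0.0883, and 6 members were higher and 3 lower. With JURKAT added to these, GZMA was 1.52, GZMB 0.028, PRF1 0.32, EOMES 0.0227 and TBX21 0.20, and 7 members were higher and 2 lower. TBX21 was 0.0603 with all 11 lines, and GZMB 0.0029 after quantile normalization. Leaving out 1 line moved GZMA between -1.90 and 0.30 (above 0 without ALL-SIL, HPB-ALL, PEER or CML-T1), GZMB between -0.17 and 0.15, and TBX21 between -0.32 and 0.11. It moved PRF1 from -1.65 (without LOUCY) to -0.145 (without CML-T1), EOMES from -1.33 (without LOUCY) to -0.40 (without PEER), KLRD1 from -0.39 (without MOLT-4) to -0.0135 (without CCRF-CEM) and TYROBP from -0.47 (without MOLT-16) to -0.17 (without MOLT-14). The members higher then numbered 2 to 5 and those lower 4 to 7, with 5 and 4 without HPB-ALL, and 4 higher without PEER or without CML-T1. With a filter that kept the brighter 50% of probe sets, 5 members and 53 listed genes remained to be tested, of which 3 and 18 were lower. At a gap of 1 log2 unit, 20 pairs of a member and a line stood out in place of 10. Under each of the other alternatives 7 to 10 did, with fewer lines where 1 was left out. The cause of these changes was not tested unless fewer genes or lines entered. No paired analysis was possible because no line belongs to both groups. With 1 array per line, signal near background limits GZMB, KLRD1, TYROBP and TBX21.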
